A study of Mus musculus with 18 samples.

Results

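The insulin-like growth factor (IGF) genes examined here were 9: the ligands Igf1 and Igf2, the receptor Igf1r, and the binding proteins Igfbp2, Igfbp3, Igfbp4, Igfbp5, Igfbp6 and Igfbp7. They were taken by name, each through every probe set of an Affymetrix mouse genome expression array that was annotated to that gene and to no other. This gave 26 probe sets among 34945 with a single gene; 24 of the 26 passed the filter on dim signals, and all 9 genes were among the 12877 genes tested. A gene was represented by its brightest probe set that passed, and values are log2(signal + 16), so that 1 unit is close to a doubling of signal for a bright probe set and more than a doubling for a dim one.

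The study followed colitis-associated colorectal cancer in male ICR mice, an outbred stock, aged 6 weeks at the start. Mice of the treated arm received both azoxymethane (AOM, a colon carcinogen, 10 mg/kg into the peritoneum on day 1) and dextran sulfate sodium (DSS, which injures the colonic lining, in drinking water, with a first cycle of 2% from day 8 to day 14, then cycles of 1.5% from day 29 to day 33 and again between days 50 and 54). Tissue was graded by microscopy as inflamed mucosa at 2 weeks (day 14), low grade dysplasia (LGD) at 4 weeks (day 28), high grade dysplasia (HGD) at 6 weeks (day 42), HGD with active inflammation at 8 weeks (day 56) and carcinoma at 20 weeks (day 140). Normal mucosa came from mice given saline and plain water and was collected on day 14 alone, so that disease stage, the age of the mice and the number of DSS cycles cannot be told apart in the later groups. Every group had 3 arrays, labelled as biological replicates, 18 in all, and how many mice stood behind an array is not given in the sources used here. All treated groups carried AOM and DSS together, and all were compared with the same 3 normal arrays.

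IGF1 and IGF2 are small secreted hormones that signal cell growth and survival through the IGF1 receptor, a tyrosine kinase of the insulin receptor family. IGF-binding proteins hold the ligands outside the cell, and proteases such as pappalysin cut some of them and so free the ligand. In the intestine IGF1 and several of the binding proteins are made largely by cells of the connective tissue beneath the epithelium, and IGF2 is made in quantity mainly before birth.

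Array medians lay between 55.7 and 57.8 signal units, and arrays of 1 group correlated at 0.859 to 0.986. Of 11 epithelial markers, 7 were above the table median signal in all 18 arrays and Vil1, Krt20, Cdx2 and Elf3 in 17. Their mean was 6.75 in inflamed array 2, against 10.7 and 9.44 in the other inflamed arrays and 11.9 to 12.0 in normal mucosa. LGD array 2 had a 3′ to 5′ difference of Gapdh probe sets, a measure of RNA integrity, of 1.63 (log2), while the other 17 arrays lay between -0.08 and 0.15. Results that rest on these 2 arrays are also given without them.

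In acutely inflamed mucosa, 6 of the 9 genes rose and none fell. In all, 46.9% of the 12877 genes passed the test in that comparison (limma, Benjamini-Hochberg adjusted p under 0.05), 22.6% as higher. The median change of the 9 was 1.28, against 0.01 over all genes tested. Without the 2 arrays that stood apart 5 of the 9 rose, all but Igf1, and 39.9% of all genes passed. Igfbp5 and Igfbp4 were the 2 genes that were also called in LGD, in HGD at 8 weeks and in carcinoma. The plot of the 9 genes by array shows the levels behind these calls.

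**Figure D1:**
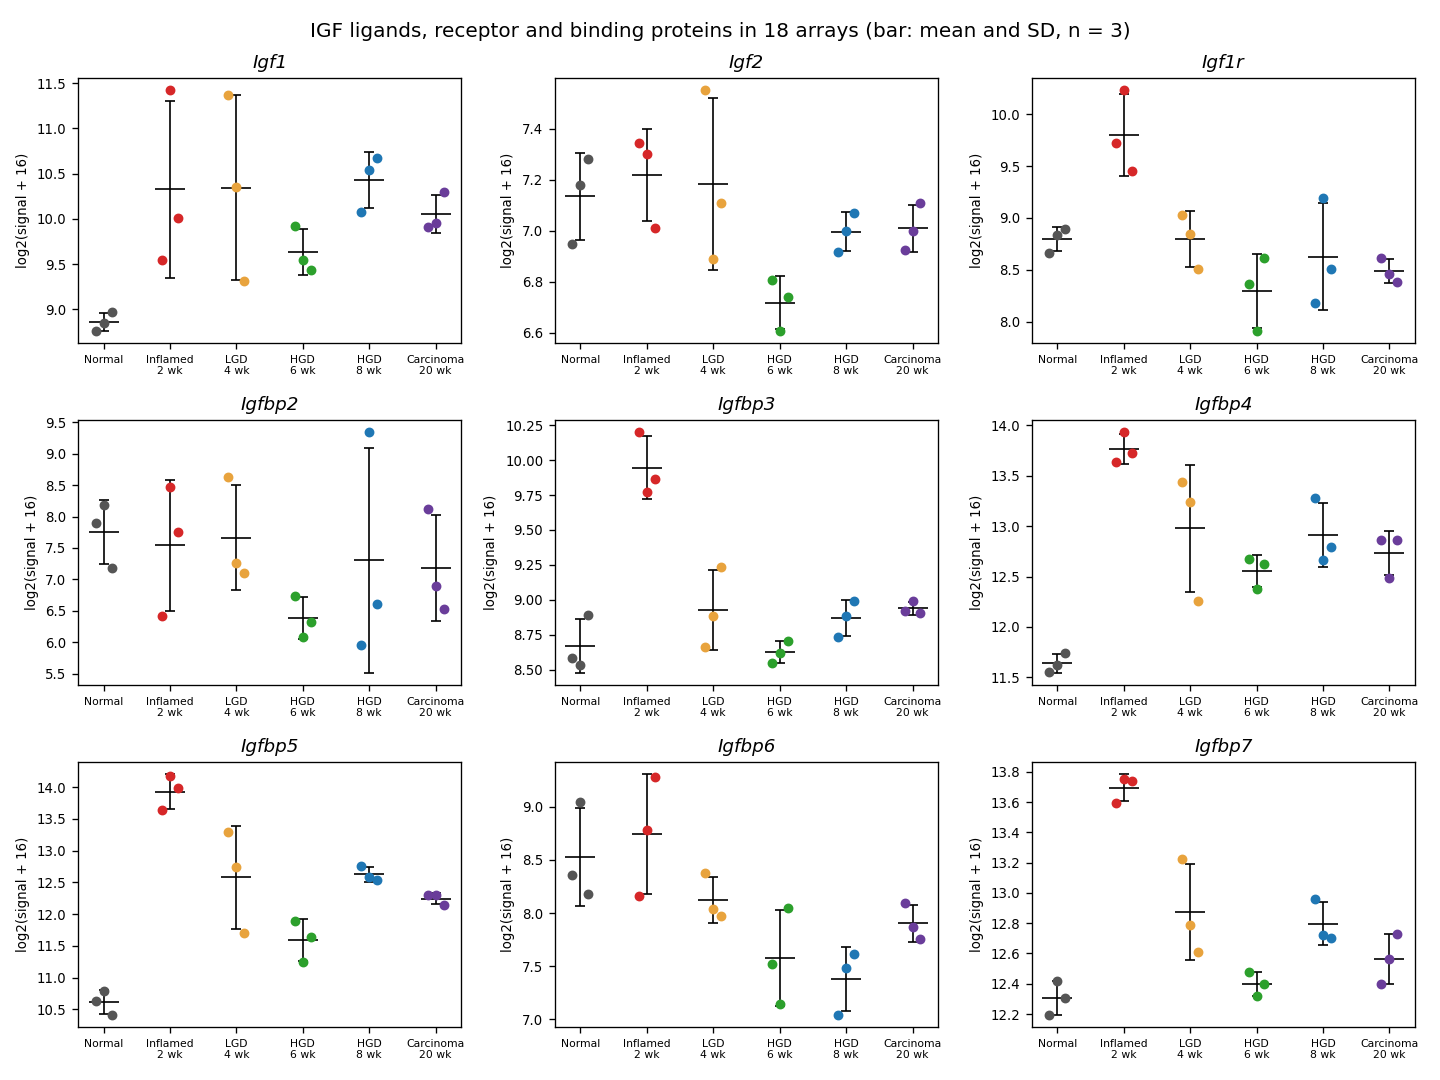
Level of each gene, log2(signal + 16) on the y axis, in the 3 arrays of each of the 6 groups on the x axis; points are arrays, bars the mean and SD, and each panel has its own y range. Igfbp5 lies between 10.41 and 10.79 in normal mucosa and at 11.24 or above in every treated array, whereas Igf2 stays between 6.61 and 7.55 throughout.

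Of the ligands, Igf1 rose. Its normal arrays read 8.76, 8.85 and 8.97, and the inflamed arrays 9.55, 11.42 and 10.01. In later tissue the values were 11.37, 10.35 and 9.32 in LGD, 9.92, 9.55 and 9.44 in HGD at 6 weeks, 10.08, 10.54 and 10.68 in HGD at 8 weeks, and 9.91, 9.96 and 10.30 in carcinoma. Every one of the 15 treated arrays therefore lay above every normal array, with a spread in the inflamed and LGD groups several times that of normal mucosa.

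The log2 change of Igf1 against normal was 1.46 ± 0.46 (SE) in inflamed mucosa (2.76-fold, adjusted p = 0.0162), a call that ended without inflamed array 2 (0.92, adjusted p = 0.0919). It was 1.57 ± 0.46 in HGD at 8 weeks (adjusted p = 0.0419), where leaving out any 1 of 12 arrays ended the call (adjusted p up to 0.114 over the 18 fits). It was 1.48 in LGD (adjusted p = 0.0673), 0.77 in HGD at 6 weeks (0.376) and 1.19 in carcinoma (0.186), none of which passed in the model of all arrays. With only the groups compared in the fit, Igf1 passed in HGD at 6 weeks (adjusted p = 0.0131) and in carcinoma (0.0108). Without inflamed array 2 or LGD array 3 the LGD change did pass (1.48, adjusted p = 0.0377; 2.00, adjusted p = 0.0100). The 4 probe sets of Igf1 gave changes of 1.24 to 1.77 in inflamed mucosa and 0.94 to 1.33 in carcinoma.

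Igf2, the fetal ligand, had signals of 81.5 to 171 against a table median of 56.6, or 6.95, 7.18 and 7.28 in normal mucosa, 7.34, 7.30 and 7.01 in inflamed mucosa and 6.92, 7.00 and 7.11 in carcinoma. Its groups overlapped except in HGD at 6 weeks, where 6.81, 6.61 and 6.74 lay below normal (change -0.42, 95% interval -0.73 to -0.10, adjusted p = 0.147). The carcinoma change was -0.13 with an interval of -0.44 to 0.19, and the added 16 understates the fold at such signals. A second Igf2 probe set did not pass the filter, with no array above the table median.

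The receptor Igf1r rose in inflamed mucosa and in no later group. The normal arrays read 8.67, 8.83 and 8.89 and the inflamed arrays 9.73, 10.23 and 9.45, without overlap. The change was 1.00 ± 0.25 (2.01-fold, adjusted p = 0.0044). In LGD the values were 9.03, 8.85 and 8.50, around the normal ones. In HGD at 6 weeks (8.36, 7.91 and 8.61) and in carcinoma (8.61, 8.46 and 8.39) all arrays were below normal, though the changes of -0.50 and -0.31 did not pass (adjusted p = 0.286 and 0.544). By the other kept probe sets of Igf1r both groups overlapped normal. Over the 4 kept probe sets the changes ran from -0.50 to -0.10 in HGD at 6 weeks and from -0.31 to 0.03 in carcinoma. Between inflamed mucosa and LGD the receptor fell by 1.01 (adjusted p = 0.00624), a call lost without the 2 arrays that stood apart (-0.82, adjusted p = 0.0695).

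Igfbp3, the main carrier of IGF1 in blood, also rose in inflamed mucosa and in no other group. Its normal arrays were 8.59, 8.53 and 8.89, against 10.20, 9.77 and 9.87 in inflamed mucosa (change 1.28 ± 0.15, 2.42-fold, adjusted p = 1.34e-05). The 12 arrays of later tissue lay between 8.55 and 9.23, and the largest later change was 0.27 in carcinoma (adjusted p = 0.356). From inflamed mucosa to LGD the gene fell by 1.02 (adjusted p = 0.000146). Its second probe set gave 1.33 in inflamed mucosa, close to the first.

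Igfbp4, a binding protein that holds IGF1 back and is a substrate of pappalysin, had normal values of 11.55, 11.62 and 11.74. The inflamed arrays read 13.64, 13.93 and 13.72, the highest of the 6 groups and well apart from normal (change 2.13 ± 0.24, 4.36-fold, adjusted p = 1.1e-05). Later values were 13.44, 13.24 and 12.26 in LGD, 12.67, 12.37 and 12.62 in HGD at 6 weeks, 13.28, 12.67 and 12.79 in HGD at 8 weeks, and 12.86, 12.48 and 12.87 in carcinoma. None of these 12 arrays reached down to the normal range.

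The changes of Igfbp4 were 1.34 ± 0.24 in LGD (2.53-fold, adjusted p = 0.0103), 1.27 ± 0.24 in HGD at 8 weeks (2.42-fold, 0.00857) and 1.10 ± 0.24 in carcinoma (2.14-fold, 0.0485), and 0.92 ± 0.24 in HGD at 6 weeks, which did not pass (0.074). The 6 probe sets of the gene gave 2.04 to 3.77 in inflamed mucosa and 0.39 to 1.24 in carcinoma, so that the chosen probe set, the brightest, was near the low end in inflamed tissue. The LGD call ended without normal array 2 (1.33, adjusted p = 0.051). The carcinoma call, at the edge of the threshold, ended when any 1 of 14 of the 18 arrays was left out (changes of 1.03 to 1.22, adjusted p up to 0.161).

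Igfbp5, a binding protein secreted into the matrix by fibroblasts and smooth muscle cells, changed most. Its normal arrays were 10.64, 10.79 and 10.41 and its inflamed arrays 13.63, 14.17 and 13.98, a change of 3.32 ± 0.29 (9.96-fold, adjusted p = 1.75e-06). It then read 13.30, 12.74 and 11.70 in LGD, 11.89, 11.24 and 11.65 in HGD at 6 weeks, 12.76, 12.59 and 12.53 in HGD at 8 weeks, and 12.29, 12.30 and 12.14 in carcinoma. The order of the group means ran from inflamed mucosa through HGD at 8 weeks, LGD and carcinoma to HGD at 6 weeks and normal mucosa, with HGD at 8 weeks and LGD closer together than the spread of either.

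Against normal, Igfbp5 rose by 1.97 ± 0.29 in LGD (3.91-fold, adjusted p = 0.00468), by 2.02 ± 0.29 in HGD at 8 weeks (4.05-fold, 0.00283) and by 1.63 ± 0.29 in carcinoma (3.10-fold, 0.0227). In HGD at 6 weeks the change was 0.98 ± 0.29, which did not pass (0.104). The carcinoma call ended without normal array 1, 2 or 3 or carcinoma array 2 or 3 (changes between 1.53 and 1.72 over the 18 fits, adjusted p up to 0.119). The second probe set of Igfbp5, with lower signals, gave only 0.71 in inflamed mucosa and 0.14 in carcinoma, so the size of the Igfbp5 change rests on 1 probe set.

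Igfbp7, a relative with weak affinity for IGFs that is abundant in vessel walls, followed a similar order at a smaller size, with LGD above HGD at 8 weeks. It was 12.19, 12.42 and 12.31 in normal and 13.59, 13.75 and 13.74 in inflamed mucosa (change 1.39 ± 0.13, 2.62-fold, adjusted p = 3.36e-06). LGD arrays read 13.22, 12.79 and 12.61, HGD at 8 weeks 12.96, 12.72 and 12.70, and carcinoma 12.40, 12.56 and 12.73. All LGD and HGD 8-week arrays were above normal, while 1 carcinoma array fell within the normal range.

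The later calls of Igfbp7 were 0.57 ± 0.13 in LGD (adjusted p = 0.0286) and 0.49 ± 0.13 in HGD at 8 weeks (0.0349), with 0.26 in carcinoma (0.323) and 0.09 in HGD at 6 weeks (0.764) not passing. The LGD call ended without normal array 1, 2 or 3 or LGD array 1 or 2, and the HGD 8-week call without any 1 of the 6 arrays compared (adjusted p up to 0.107 and 0.101). Of its 3 probe sets, 2 gave 1.39 and 1.88 in inflamed mucosa, and the third gave 0.07.

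Igfbp6, which prefers IGF2 over IGF1, was the gene that fell. Its normal arrays were 8.35, 9.05 and 8.18 and the HGD 8-week arrays 7.04, 7.48 and 7.61, all below normal. The change was -1.15 ± 0.29 (2.22-fold lower, adjusted p = 0.0275), a call that ended without normal array 1 or 2 or HGD 8-week array 1 or 2 (-0.89 to -1.32 over the 18 fits, adjusted p up to 0.116). HGD at 6 weeks (7.52, 7.15 and 8.05) and carcinoma (8.09, 7.87 and 7.75) were also below every normal array, with changes of -0.95 and -0.62 that did not pass (adjusted p = 0.111 and 0.274). Inflamed arrays, at 8.16, 8.78 and 9.28, overlapped normal.

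Igfbp2 differed more between arrays of a group than between groups. Normal arrays were 7.90, 8.18 and 7.18, and the HGD 8-week arrays 5.96, 9.34 and 6.61. No comparison passed, and the 95% interval of the carcinoma change, -2.18 to 1.03, covers a fall and a rise of 2-fold. In HGD at 6 weeks all 3 arrays (6.74, 6.09 and 6.32) were below normal (change -1.37, adjusted p = 0.333).

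A moderated F test over the 6 groups called 6 of the 9 genes, Igf1r, Igfbp3, Igfbp4, Igfbp5, Igfbp6 and Igfbp7, where 45.3% of all genes passed. Counted by stage, 3 of the 9 genes rose in LGD, where 5.69% of all genes passed and 2.61% as higher. In HGD at 8 weeks 4 rose and 1 fell, where 11.3% passed, 4.84% higher and 6.42% lower. In carcinoma 2 rose, where 0.901% passed and 0.326% as higher. In HGD at 6 weeks limma called none of the 9, where 1.14% of all genes passed. At an unadjusted p under 0.05 there were 4 of the 9, and 2527 of all 12877 genes. With only the HGD 6-week and normal arrays in the fit, Igf1, Igfbp2, Igfbp4 and Igfbp5 passed, and 12.7% of all genes did. Igfbp4 and Igfbp5 also passed there when LGD array 1 (adjusted p = 0.0492 and 0.0494) or LGD array 3 (0.0138 and 0.0227) was left out of the model, as did Igfbp4 without HGD 8-week array 1 (0.0438). Without the 2 arrays that stood apart, Igfbp5 was the one call in LGD and in carcinoma (0.66% and 0.575% of all genes passed), and Igfbp7 was lost in HGD at 8 weeks (0.49, adjusted p = 0.0504). A fit of the LGD and normal arrays alone called none of the 9, and 0.388% of all genes.

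Counts of genes whose 3 arrays did not overlap the 3 normal arrays need no model. In inflamed mucosa 6 of the 9 were apart and higher, as were 29.3% of all genes. In LGD 4 were (Igf1, Igfbp4, Igfbp5 and Igfbp7; 16.3% of all genes). In HGD at 6 weeks 3 were apart and higher (Igf1, Igfbp4 and Igfbp5; 17.6%) and 4 lower (Igf2, Igf1r, Igfbp2 and Igfbp6; 17.4%). In HGD at 8 weeks 4 were higher and 1 lower (15.5% and 17.9% of all genes), and in carcinoma 4 were higher and 2 lower (14.4% and 17.1%). The shares for all genes differ little between the later stages, and Igf1, Igfbp4 and Igfbp5 were apart and higher at all 5. The share of all genes apart at all 5 stages was not counted. Because every stage was set against the same 3 normal arrays, the 5 results are not independent.

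**Figure D2:**
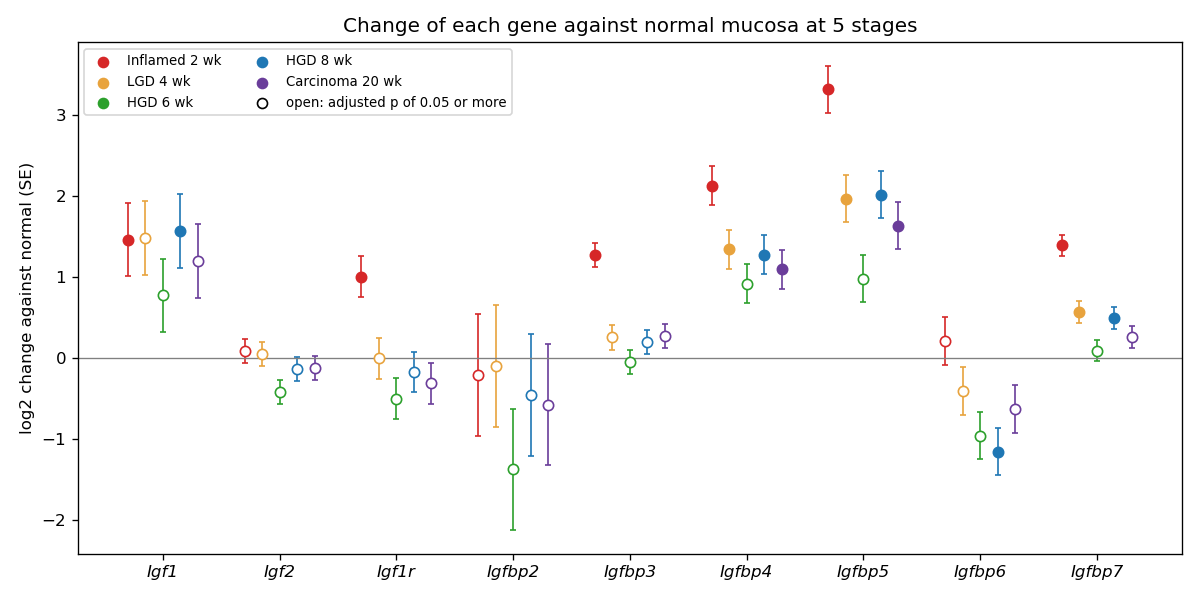
Log2 change against normal mucosa (y axis) of each of the 9 genes (x axis) at 5 stages, with the SE; filled points had an adjusted p under 0.05. Igfbp5 and Igfbp4 lie above 0 at every stage and Igf1 too, Igf1r and Igfbp3 stand out in inflamed mucosa alone, and Igfbp6 reaches -1.15 in HGD at 8 weeks.

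The probe sets of 1 gene read different parts of its transcripts and did not always move alike. In inflamed mucosa the 4 of Igf1, the 2 of Igfbp3 and the 6 of Igfbp4 moved in 1 direction by 1.24 or more. The 4 kept probe sets of Igf1r gave 1.05, 0.91, 1.00 and 0.59. The one at 0.59 was above the table median in the 3 inflamed arrays alone, so it passed the filter only through that group. A further Igf1r probe set, below the filter, gave 0.16. Averaging all kept probe sets of a gene kept the 6 calls in inflamed mucosa and lost Igfbp7 in HGD at 8 weeks (0.29, adjusted p = 0.0704) and Igfbp4 in carcinoma (1.00, adjusted p = 0.109).

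**Figure D3:**
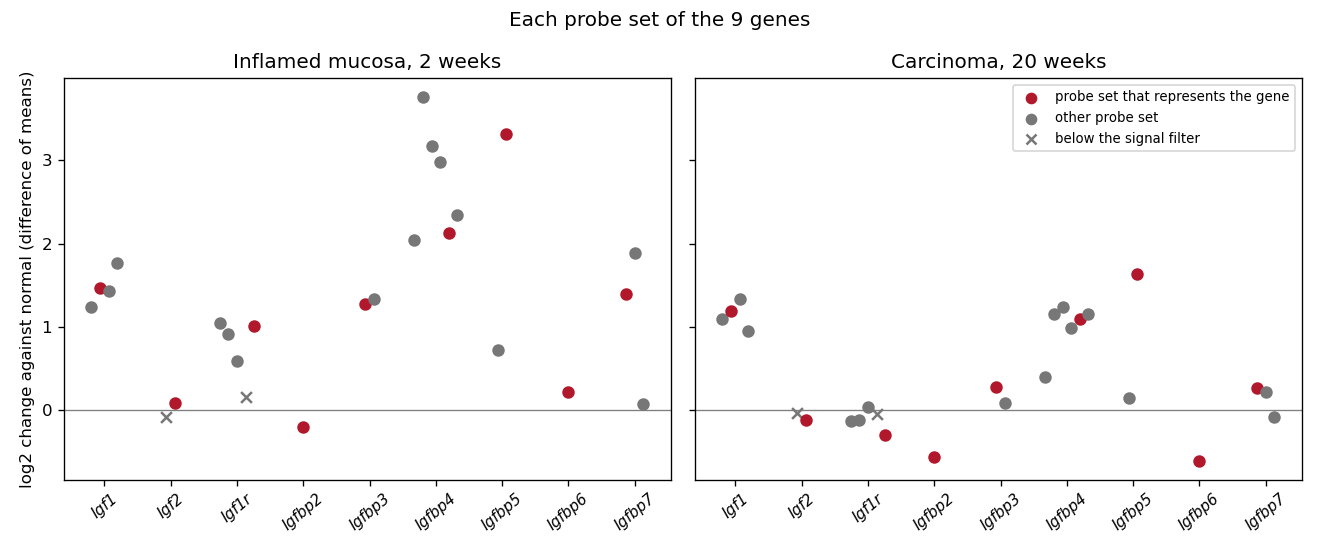
Difference of mean log2(signal + 16) against normal (y axis) for every probe set of the 9 genes (x axis), in inflamed mucosa and in carcinoma. Red marks the probe set used for the gene, grey the others and crosses those below the filter; the pair of Igfbp5 differs most, 3.32 against 0.71 in inflamed mucosa.

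Stages were also compared with each other. From inflamed mucosa to LGD, Igf1r, Igfbp3, Igfbp4, Igfbp5 and Igfbp7 fell, 5 of 9, where 36.3% of all genes passed and 17% as lower. The arrays of all 5 were apart, as were 21.9% of all genes in that direction. Igfbp5 fell by 1.35 ± 0.29 (adjusted p = 0.00248), Igfbp7 by 0.82 ± 0.13 (0.000357) and Igfbp4 by 0.79 ± 0.24 (0.0193). Igf1 differed by 0.02 between these groups (95% interval -0.96 to 0.99, adjusted p = 0.977). The Igfbp4 call ended without inflamed array 2 or LGD array 3 (-0.70 and -0.43, adjusted p = 0.0697 and 0.0754), and without inflamed array 2 and LGD array 2 together 3 genes still fell, Igfbp3, Igfbp5 and Igfbp7.

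Beyond LGD no gene of the 12877 passed between neighbouring stages (limma, 0% in each of the 3 comparisons). At an unadjusted p under 0.05 there were 900 genes between HGD at 6 weeks and LGD, 423 between HGD at 8 and at 6 weeks, and 1422 between carcinoma and HGD at 8 weeks. These held 3, 2 and 0 of the 9 IGF genes. From LGD to HGD at 6 weeks, between which the second DSS cycle fell, Igfbp5 changed by -0.99 (unadjusted p = 0.00416, adjusted 0.463). It passed without LGD array 3 (-1.43, adjusted p = 0.0207). Igfbp2, Igf2 and Igfbp7 were the 3 whose HGD 6-week arrays all lay below LGD, against 6.62% of all genes. From HGD at 6 to 8 weeks, between which the third DSS cycle fell, Igfbp5 was 1.04 higher (unadjusted p = 0.00296, adjusted 0.999). All 3 of its HGD 8-week arrays were above all 3 HGD 6-week arrays. The part of DSS in either change was not tested. Igf1, Igf2, Igfbp3 and Igfbp7 were apart in that direction too, 5 of 9 in all, against 3.47% of all genes.

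Markers of other cells moved in the same tissue. In inflamed mucosa 10 of 10 fibroblast markers rose (median change 1.11), as did 9 of 9 endothelial (1.56), 6 of 7 macrophage (2.52) and 5 of 5 neutrophil markers (4.84), while 11 of 11 epithelial markers fell (-3.07). Some markers passed the filter on few arrays: Tie1, Itgam and Mmp8 were above the table median in 5 of 18 and Cxcr2 in 7. Such a marker can enter the count through the group where it is bright. In these bulk samples fewer cells of a type and less RNA per cell cannot be told apart, and the part of cell makeup in the rise of the 6 IGF genes was not tested. In carcinoma none of the 10 fibroblast and 9 endothelial markers passed, with median changes of -0.01 and 0.04. In LGD 1 of each passed (0.46 and 0.39), and in HGD at 8 weeks none (0.04 and 0.17). Neutrophil markers were still higher at both stages, 2 of 5 in LGD (median 2.17) and 2 of 5 in HGD at 8 weeks (1.30), and none of the 5 passed in carcinoma (0.51). Over the 18 arrays the neutrophil mean correlated at 0.90 with Igfbp4 and 0.89 with Igfbp5, and the fibroblast mean at 0.75 and 0.77. The part of neutrophils in these genes was not tested.

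The IGF genes were set against the fibroblast, endothelial and macrophage lists array by array. The value was the change of each gene from the normal mean minus the change of the list mean. Relative to fibroblast markers Igfbp5, by its brightest probe set, was higher by 2.01 in inflamed mucosa and 1.35 in LGD. It was higher by 1.21 in HGD at 6 weeks, 2.03 in HGD at 8 weeks and 1.64 in carcinoma. The second Igfbp5 probe set changed by only 0.71, 0.21, 0.14, 0.31 and 0.14 over these 5 stages. The fibroblast mean changed by 1.30, 0.62, -0.23, -0.02 and -0.01, more than that probe set in inflamed mucosa and LGD. Igfbp4 was higher by 0.82, 0.72, 1.15, 1.29 and 1.11 in the same order. For both genes all 15 treated arrays were above all normal arrays, and this also held relative to the endothelial list. Relative to the 7 macrophage markers it held at all 5 stages for Igfbp5 and at 3 of 5 for Igfbp4, which overlapped normal in inflamed mucosa (0.01) and in LGD (0.91). No such difference was taken for the neutrophil list. Its mean read 5.94, 5.68 and 6.24 in normal, 10.21, 11.16 and 11.43 in inflamed and 6.99, 8.72 and 8.00 in carcinoma arrays.

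Igfbp7 behaved differently. Its inflamed arrays were 0.27, -0.25 and 0.24 relative to fibroblast markers, against -0.10 to 0.12 in normal arrays, so that its rise there was about the size of theirs. It stood above the fibroblast list in 2 of the 5 stages, HGD at 6 weeks (0.33) and at 8 weeks (0.51). Igf1 was level with the fibroblast list in inflamed mucosa (0.16, overlapping normal) and above it in the 4 later groups, by 0.87, 1.00, 1.59 and 1.20. Relative to macrophage markers Igf1 was at -0.65 in inflamed mucosa and overlapped normal there and in LGD, and was above in the other 3 stages. These differences are descriptions with 3 arrays a group, for which an exact permutation test could not go below p = 0.1.

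**Figure D4:**
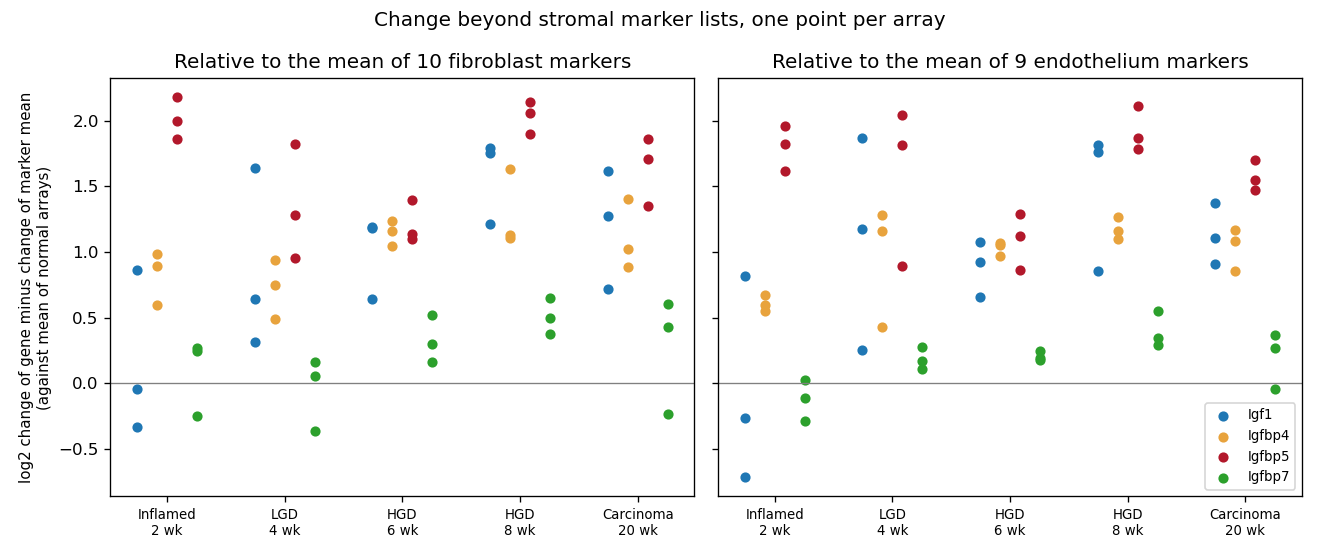
Change of Igf1, Igfbp4, Igfbp5 and Igfbp7 from the normal mean minus the change of the marker mean (y axis, log2), for 10 fibroblast and 9 endothelial markers, in the 3 arrays of each treated group (x axis). Each gene is shown by its brightest probe set. Igfbp5 lies between 0.87 and 2.18 in all 15 arrays of both panels, and Igfbp7 between -0.37 and 0.65.

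Igfbp6 was set against smooth muscle markers. Smooth muscle markers had a median change of -1.34 in HGD at 8 weeks, where 2 of 7 passed as lower, and Igfbp6 changed by 0.07 relative to their mean there, overlapping normal, as it did in LGD, HGD at 6 weeks and carcinoma. In inflamed mucosa it did not follow them: it stood 0.81 above the list, with all 3 arrays (0.27, 0.65 and 1.52) above normal. Relative to fibroblast, endothelial and macrophage markers Igfbp6 was at -1.13, -1.25 and -1.17 in HGD at 8 weeks, all 3 arrays below normal each time. Across the 18 arrays Igfbp6 correlated at 0.70 with the mean of 4 enteric neuron and glia markers, 0.67 with the 7 smooth muscle markers and 0.63 with the 10 fibroblast markers, and Igfbp7 at 0.94 with the endothelial mean. Of the enteric list 4 of 7 markers passed the filter, and no difference from its mean was taken. Among those that passed, Tubb3 was above the table median in 3 of the 18 arrays and Elavl4 in 5. The arrays share their groups and their scaling, and the part of smooth muscle in the fall of Igfbp6 was not tested.

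Within the LGD group, Igf1, Igfbp4, Igfbp5 and Igfbp7 were all highest in array 1 and lowest in array 3. The mean of the 5 neutrophil markers had the same order, 11.18, 8.49 and 6.90. The fibroblast mean was 11.70, 11.69 and 10.97 and the endothelial mean 7.75, 7.42 and 7.30. The macrophage mean, 9.44, 8.72 and 8.84, was not lowest in array 3, and the epithelial mean ran the other way, 11.41, 11.98 and 12.29. LGD array 2 is the array with the high Gapdh difference. The part of inflammation, cell makeup or RNA integrity in the spread of the IGF genes within LGD was not tested.

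Over the 18 arrays Igfbp4 and Igfbp5 had the highest Pearson r of the 9 (0.96, Spearman rho = 0.93), and Igfbp5 and Igfbp7 the highest rho (0.94, r = 0.92). Igfbp4 and Igfbp7 followed by both (r = 0.88, rho = 0.89). Igfbp2, the next gene to Igfbp5 on chromosome 1 in the RefSeq annotation of GRCm38.p6, had r = 0.18 with it. The 250 bases before the RefSeq transcript start are printed for these 4 genes because 3 of them moved together and the fourth, a neighbour of 1 of them, did not. They run 5′ to 3′ on the gene's strand, in GRCm38.p6. Capitals mark a TATA box (TATAAA) or a GC box (GGGCGG), each searched on both strands.
Igfbp4, chr11:99040994-99041243, plus strand: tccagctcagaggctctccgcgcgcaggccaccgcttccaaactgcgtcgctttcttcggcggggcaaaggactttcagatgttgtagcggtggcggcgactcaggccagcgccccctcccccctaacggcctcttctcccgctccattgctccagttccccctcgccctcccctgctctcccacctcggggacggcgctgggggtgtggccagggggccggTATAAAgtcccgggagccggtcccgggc
Igfbp5, chr1:72874866-72875115, minus strand: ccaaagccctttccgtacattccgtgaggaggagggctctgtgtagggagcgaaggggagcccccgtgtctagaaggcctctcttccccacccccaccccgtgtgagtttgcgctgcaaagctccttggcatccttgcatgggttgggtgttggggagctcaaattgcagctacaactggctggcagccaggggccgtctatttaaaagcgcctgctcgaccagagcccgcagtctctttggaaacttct
Igfbp7, chr5:77408046-77408295, minus strand: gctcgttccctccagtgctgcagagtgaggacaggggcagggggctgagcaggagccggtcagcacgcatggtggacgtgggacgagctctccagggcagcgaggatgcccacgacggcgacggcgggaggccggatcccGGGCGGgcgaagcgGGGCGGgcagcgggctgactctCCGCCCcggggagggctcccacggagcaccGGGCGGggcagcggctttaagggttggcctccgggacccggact
Igfbp2, chr1:72824230-72824479, plus strand: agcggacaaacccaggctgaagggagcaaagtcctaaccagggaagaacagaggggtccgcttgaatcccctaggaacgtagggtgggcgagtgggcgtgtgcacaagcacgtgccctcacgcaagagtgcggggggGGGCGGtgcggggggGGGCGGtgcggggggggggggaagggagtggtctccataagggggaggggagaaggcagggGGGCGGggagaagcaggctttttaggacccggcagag

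The 3 genes that moved together did not share these letters. Igfbp4 had a TATA box whose first base lay at -28 from the start and no GC box, Igfbp7 had 4 GC boxes and no TATA box, and Igfbp5 had neither. Igfbp2 had 3 GC boxes at the start shown, the first of 2 listed. The AP-1 motif TGACTCA and the STAT motif TTCNNNGAA were searched on both strands, with no overlap with the others required or barred. Neither was found before these 4 starts. The second Igfbp2 start, not printed here, had 1 AP-1 match in the 250 bases before it.

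All 9 genes had an entry, with 13 start windows of 300 bases (250 before to 50 after the start). Of all 32851 such windows in the table, 13.6% held the TATA box, 35.7% the GC box, 5.2% the AP-1 motif and 8.3% the STAT motif. The 13 windows had a median G+C content of 63.3% and 14 CpG, against 52.7% and 7 over all. A match or its absence in these windows is a description of letters.

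The genes most like each member over the 18 arrays were named by Pearson r, as a description. For Igfbp5 they were Col18a1 (0.97), which encodes a basement membrane collagen, Lgi2 (0.97) and Spon1 (0.96), and for Igfbp4 they were Lgi2 (0.96), Elk3 (0.94) and Saa3 (0.94). For Igfbp7 they were Gpm6b (0.99), Kirrel (0.98) and Sulf1 (0.97), and for Igf1 they were Adamts12 (0.91), Angpt4 (0.90) and Ccn5 (0.89). Igfbp3 was closest to Rnf220 (0.95), Stat3 (0.94) and Ndst2 (0.92), and Igf1r to Lamb2 (0.95), Trim3 (0.95) and Cbx6 (0.94). Igfbp6 was closest to Cryab (0.92), Snrk (0.88) and Abca9 (0.87), Igfbp2 to Alcam, Abtb1 and Ccdc163 (0.82, 0.82 and 0.81), and Igf2 to Prkar2b (0.85), Cblb (0.76) and Vwf (0.73).

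Other genes of the pathway were taken from a list of 32, of which 26 passed the filter and were tested. In inflamed mucosa 12 rose and 3 fell (46.9% of all genes passed). The largest rise was that of Pappa, the pappalysin that cuts Igfbp4. Its normal arrays read 6.64, 7.33 and 6.41 and its inflamed arrays 10.50, 10.46 and 10.03, a change of 3.54 ± 0.31 (11.6-fold, adjusted p = 1.63e-06).

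Pappa2, the relative that cuts Igfbp3 and Igfbp5, went from 7.46, 7.57 and 6.91 to 8.85, 9.64 and 9.25 (1.93 ± 0.34, adjusted p = 0.000319). Stc1, a stanniocalcin of the family that inhibits pappalysins, went from 6.22, 6.43 and 6.18 to 7.53, 9.67 and 8.58 (2.32 ± 0.38, adjusted p = 0.000177). None of the inflamed arrays of these 3 genes overlapped normal. The fourth by size was Grb10, an adaptor that dampens IGF1 and insulin receptor signalling (1.45 ± 0.28, adjusted p = 0.000641).

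From inflamed mucosa to LGD, Pappa fell by 2.89, Pappa2 by 1.99 and Stc1 by 1.80 (adjusted p = 1.47e-05, 0.000475 and 0.00203), and Irs2, a docking protein of both receptors, fell by 1.09 (0.00109). In that comparison 10 of the 26 fell and 1 rose, where 36.3% of all genes passed. LGD values of Pappa, 8.00, 7.33 and 7.00, overlapped normal, and its carcinoma values, 6.60, 7.28 and 6.13, did too. Pappa and Pappa2 thus passed in no later group, where Igfbp4 and Igfbp5 still did in 3 of 4.

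In LGD 1 of the 26 rose, Akt1 (0.42 ± 0.09, adjusted p = 0.0168), and 1 fell, Insr (-0.81 ± 0.20, 0.0313), where 5.69% of all genes passed. The other kept probe sets of Akt1 gave only 0.04 and 0.07 there, and that of Insr gave -0.21. Insr encodes the insulin receptor, and its arrays were 9.65, 9.62 and 9.63 in normal mucosa and 8.78, 8.68 and 9.01 in LGD. In HGD at 8 weeks 3 rose and 3 fell, where 11.3% of all genes passed. Htra1, a secreted protease, rose by 1.15 ± 0.31 (adjusted p = 0.0348), while Insr fell by 0.88 (0.016), Foxo3 by 0.83 (0.0169) and Pik3r1 by 0.61 (0.0345). The other kept probe set of Insr gave -0.30 at this stage. In HGD at 6 weeks and in carcinoma limma called none of the 26, where 1.14% and 0.901% of all genes passed. At an unadjusted p under 0.05 there were 12 and 9 of the 26, and 2527 and 2378 of all 12877 genes. With only the groups compared in the fit, 1 rose and 5 fell in HGD at 6 weeks, where 12.7% of all genes passed. In carcinoma 1 rose in such a fit, where 4.11% of all genes passed.

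These later calls rested on few arrays. In HGD at 8 weeks the Insr call ended without normal array 2 (adjusted p = 0.0564), that of Foxo3 without normal array 1 or 2 or HGD 8-week array 2, and those of Htra1 and Pik3r1 without any normal array or HGD 8-week array 2 or 3 (adjusted p up to 0.0619, 0.115 and 0.109). In LGD, Akt1 was lost without normal array 2 or 3 and Insr without any normal array, and both without LGD array 1 or 2 (adjusted p up to 0.0721 and 0.106). Without the 2 arrays that stood apart, 11 rose and 2 fell in inflamed mucosa, none passed in LGD, and 5 fell from inflamed mucosa to LGD.

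**Figure D5:**
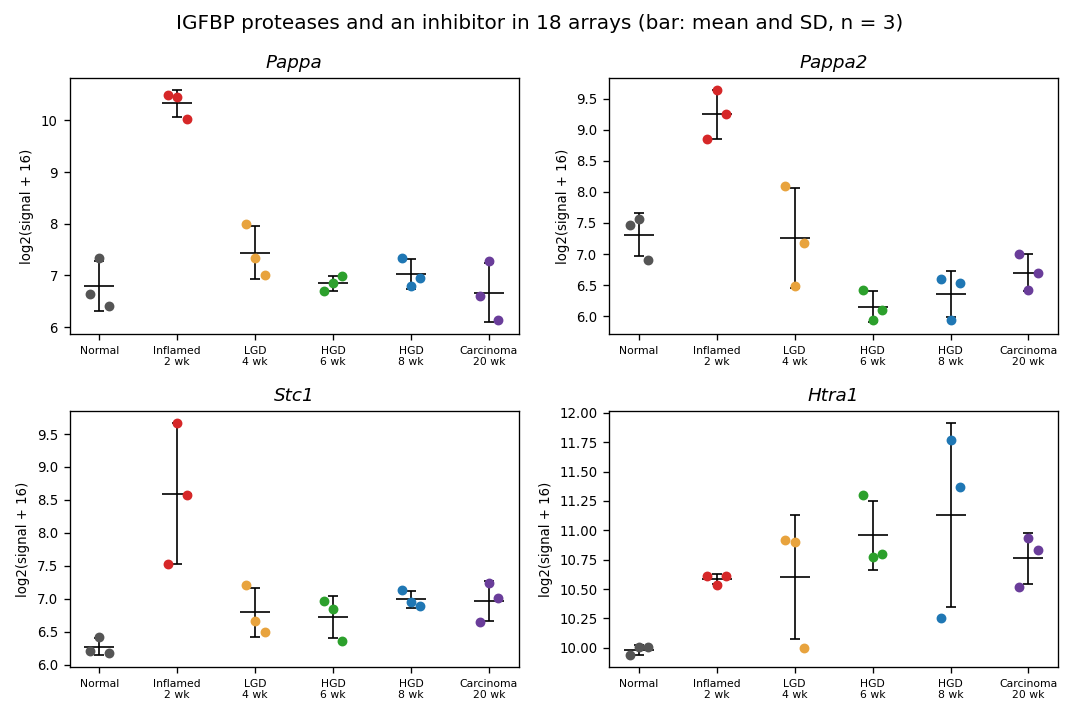
Level of Pappa, Pappa2, Stc1 and Htra1, log2(signal + 16) on the y axis, in the 3 arrays of each group on the x axis, with mean and SD. Inflamed arrays of Pappa, Pappa2 and Stc1 stand above normal and the carcinoma arrays of Pappa and Pappa2 lie around or below normal, whereas Htra1 is above normal in every treated array but LGD array 3.

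A list of 10 genes around Igf2, its RNA-binding proteins and other imprinted growth genes had 6 tested, and H19, Igf2bp1, Igf2bp2 and Dlk1 were not. In inflamed mucosa Ndn (1.31 ± 0.38, adjusted p = 0.0111) and Mest (0.65 ± 0.15, 0.00195) rose, and from there to LGD both fell (by 1.78 and 0.54). The Ndn rise ended without inflamed array 2 (adjusted p = 0.0538), as did the Mest fall (0.0516). At later stages limma called none of the 6 against normal, with 0, 1, 3 and 2 at an unadjusted p under 0.05 in LGD, HGD at 6 weeks, HGD at 8 weeks and carcinoma. Of all 12877 genes, 3146, 2527, 3888 and 2378 had such a p in these groups.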

How the data were processed

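Colonic tissue of 18 mouse samples was hybridised to Affymetrix mouse genome expression arrays, 1 array a sample. The deposited values are intensity signals on a linear scale, made by the authors with MAS5, per the submitters' processing notes; no source used here gives the MAS5 version or scaling. A MAS5 signal has no count depth, so the number of arrays limits the precision.

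Control probe sets and those annotated to several genes or none were left out, leaving 34945 of 45101. Probe sets above the table median signal in at least 3 of 18 arrays were kept, signals were taken as log2(signal + 16), and a gene was represented by its kept probe set with the highest mean. One limma model (limma 3.58.1, R 4.3.3; eBayes with an intensity trend, 12 residual degrees of freedom) held all 18 arrays, and p-values of each of 9 comparisons were adjusted by Benjamini-Hochberg over 12877 genes, with calls at 0.05. Intervals are at 95%. The model was tested on simulated data in which a gene had the same spread in every group. For inflamed against normal mucosa it recovered 76% of changes of 1 log2 unit and 94% of changes of 2. A spread that differs between groups was not simulated. The labels call arrays of a group biological replicates; with the number of mice per array not given, p-values measure the spread between these arrays.

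The 9 genes and all lists were chosen with earlier results of these data known. Genes named were the 9, up to 4 called genes with the largest change per pathway list and comparison, and the 3 most alike by Pearson r per gene; other named genes were chosen after their values were seen. Alternatives were added constants of 1 and 64, no filter, the mean of kept probe sets, quantile scaling, no trend, the replicate number as a block, only the groups compared, and each array left out; leaving out 2 arrays together was added after seeing the data. Promoter sequences are from RefSeq, GRCm38.p6.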

Additional observations from a re-analysis of the deposited data

Results flagged for a closer look

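The changes of 5 genes against the same normal arrays differed between inflamed mucosa and LGD by a test of the difference itself (limma, adjusted over 12877 genes). The LGD minus inflamed difference was -1.35 for Igfbp5, -1.02 for Igfbp3, -1.01 for Igf1r, -0.822 for Igfbp7 and -0.785 for Igfbp4. All 3 LGD arrays lay below all 3 inflamed arrays for each of the 5. Epithelial markers moved the other way between these groups, 10 of 11 higher, and 8 of 9 endothelial and 5 of 10 fibroblast markers fell; their part in the differences was not tested. Groups of 3 arrays are too small for a check of single arrays against their group.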

How the results depend on the processing

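No called value changed sign under any alternative run. Of 729 values of the 9 genes under 9 alternatives other than leaving out 1 array, 703 kept their side of the threshold, 21 lost a call and 5 gained one. The 2 calls in carcinoma became 1 (Igfbp5) with an added constant of 1, with no filter, with the mean of kept probe sets, with the replicate number as a block and without the 2 arrays that stood apart. With only the groups compared in the fit, the LGD calls went from 3 to 0, those in HGD at 6 weeks from 0 to 4, those in carcinoma from 2 to 3 (Igf1 gained, 1.19, adjusted p = 0.0108), and those from inflamed mucosa to LGD from 5 to 3. Without the 2 arrays, chosen after seeing the data, the LGD calls went to 1 and those from inflamed mucosa to LGD to 3. The cause was not tested.

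In the 9 comparisons made, same-numbered arrays did not all deviate together (correlations of -0.462 to 0.236, and in no comparison all 3 above 0.1). All 3 were positive for HGD at 8 weeks with normal (0.06 to 0.09) and with carcinoma (0.07 to 0.24). No pairing by number was seen across the groups, though 3 arrays a group cannot exclude one. With the replicate block the calls in HGD at 8 weeks went from 5 to 3. With each array left out in turn, the calls ranged from 5 to 6 in inflamed mucosa, 1 to 4 in LGD, 0 to 2 in HGD at 6 weeks, 2 to 5 in HGD at 8 weeks, 0 to 2 in carcinoma, 4 to 6 from inflamed mucosa to LGD and 0 to 1 from LGD to HGD at 6 weeks, stayed at 0 in the other 2 comparisons, and were 6 to 8 in the F test. Of 21 calls, 12 were kept whichever array was left out.

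Over all genes, calls with only the groups compared went from 733 to 50 in LGD, 147 to 1633 in HGD at 6 weeks, 1450 to 761 in HGD at 8 weeks, 116 to 529 in carcinoma and 0 to 1 from HGD at 6 to 8 weeks. The block gave 31 in HGD at 6 weeks and 44 in carcinoma. Without the 2 arrays there were 85 in LGD, 63 in HGD at 6 weeks, 74 in carcinoma and 2621 against 4677 from inflamed mucosa to LGD. Leaving out 1 array gave 70 to 1787 in LGD, 6 to 439 and 333 to 2202 in HGD at 6 and 8 weeks, 8 to 372 in carcinoma and 0 to 55 from LGD to HGD at 6 weeks.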

Other observations

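In HGD at 8 weeks the 3 arrays differed widely in 3 imprinted growth genes and in Igfbp2, chosen here after their values were seen. Igfbp2 read 5.96, 9.34 and 6.61, Plagl1 7.07, 11.42 and 10.27, Cdkn1c 7.35, 11.43 and 9.80, and Peg3 6.81, 9.31 and 8.57 (log2). Array 2 was highest and array 1 lowest for all 4 genes. Other imprinted genes of the same list did not follow: Mest read 6.14, 6.06 and 6.23, and Ndn read 7.47, 6.82 and 7.14. Igf2, itself imprinted, read 6.92, 7.00 and 7.07 in the same arrays.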
